A study of Mus musculus with 19 samples.

Results

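The endothelial markers described here are the 9 genes Flt1, Kdr, Tek, Cdh5, Cldn5, Esam, Egfl7, Pecam1 and Eng, taken by gene symbol from the count tables of cultured mouse microglia. All 9 were found, among 16941 genes in each of 19 tables. In the brain 7 of them are largely restricted to endothelial cells, while Pecam1 and Eng are also made by macrophages and are treated apart. Cortical cells of 10 to 11 months old C57BL/6 mice were grown for 4 weeks in all groups, in medium that held 5 ng/mL M-CSF (the macrophage growth factor) and 10% serum. WT mice were wild type, and APP mice carried hAPPJ20, a human amyloid precursor protein transgene with the Swedish and Indiana mutations (APPSw,Ind) under the PDGF promoter, which is active mainly in neurons. LPS, or lipopolysaccharide, a bacterial product sensed by Toll-like receptor 4, was given at 100 ng/mL for 6 h, vehicle cultures received plain medium, and both then had fresh medium for 16 h. There were 4 libraries of WT vehicle and 5 each of WT LPS, APP vehicle and APP LPS. Whether the libraries of a group came from separate animals, pools or cultures is not given in the sources used here, so the spread between them may be partly technical.

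Endothelial cells line blood vessels and, in the brain, form the barrier between blood and tissue. Their identity rests on receptors for vascular growth factors, on junction proteins that seal neighbouring cells to each other, and on secreted proteins that guide vessel growth. Microglia, the resident macrophages of the brain, arise from another lineage and are not known for junction proteins such as VE-cadherin or claudin-5. Flt1 is also known from monocytes and macrophages, and Tek from a subset of monocytes. Lipopolysaccharide acts on endothelial cells as well as on macrophages, and inflamed endothelium is known to display leukocyte adhesion molecules and to loosen its junctions.

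Library totals ran from 13065257 to 31248988 counts, with a median of 21918747. Levels are given as CPM, the counts per 1000000 of the scaled library total. Each library was made from the 3′ ends of transcripts, so CPM values were not divided by transcript length, and levels of different genes are not ranked against each other. Of 20 microglia and macrophage markers 18 were counted in every library, and P2ry12 and Tmem119, 2 markers of microglia at rest, were at 0 CPM in 6 and 3 libraries. The 20 markers summed to between 6663 and 13045 CPM in 15 libraries. In the 4 libraries numbered 57 to 60, which are 1 of each group, the sum was 1995 to 4318 CPM. These 4 libraries stood apart from the rest and are compared with the others beside the results they touch.

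Because the libraries read the 3′ end of a transcript, the sequence next to the annotated site where the poly(A) tail is added is shown for each marker. Whether that site was used in these cultures was not tested. The ends below belong to the longest coding transcript of each gene in GENCODE M21 (GRCm38), read 5′ to 3′, and capitals mark the poly(A) signal. Each is shown from the signal on for at most 30 bases. In Cdh5 and Esam 31 and 33 bases lie between the start of the signal and the end of the transcript, so their last bases are not shown, while the other 7 run to the end.
Flt1: AATAAAattaactttcaaaaccaa
Kdr: AATAAAcgtattctgagtaaagaga
Tek: AATAAAtgtcttgtctacccaca
Cdh5: AATAAAgacatcttgaaattcttccttttc
Cldn5: AGTAAAtggtttgaacactttcaa
Esam: AATAAAgatacatcgcatttgcatggacaa
Egfl7: AATAAAgctgagacttgagc
Pecam1: AATAAAattgatttttactcttc
Eng: AATAAAagggt
The common signal AATAAA was present in the last 60 bases of 8 of the 9 genes, and Cldn5 had the variant AGTAAA. Among the 21877 genes with a coding transcript in this annotation, 60.0% held AATAAA in that window and 2.46% held AGTAAA with neither AATAAA nor ATTAAA. Only the sense strand of the window was searched. The presence of a signal is a description of the sequence and does not show where the reads of these libraries began.

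Flt1 encodes VEGFR1, a receptor that binds vascular endothelial growth factor A (VEGF-A) tightly and signals weakly. It was counted in every library. The WT vehicle libraries held 21.7, 49.1, 20.2 and 31.9 CPM of Flt1, and the WT LPS libraries 4.17, 16.9, 13.04, 29.7 and 12.9 CPM. The APP vehicle libraries held 21.2, 6.51, 33.3, 9.55 and 31.1 CPM of Flt1, and the APP LPS libraries 23.5, 9.38, 12.1, 6.98 and 27.7 CPM. In WT, 4 of 5 LPS libraries lay below every vehicle library, and replicate 4 of WT LPS lay among them. In APP the ranges of vehicle and LPS overlapped throughout. In WT, vehicle libraries had a mean ± SD of 30.7 ± 13.3 CPM (n = 4) and LPS libraries of 15.3 ± 9.26 CPM (n = 5). The APP means were 20.3 ± 12.2 CPM without LPS and 15.9 ± 9.14 CPM after it (n = 5 each). Group means of the other markers below follow this order, WT before APP and vehicle before LPS. The log2 change of Flt1 with LPS was −1.004 ± 0.55 (SE) in WT and −0.35 ± 0.52 in APP, with adjusted p-values of 1 in both by edgeR's quasi-likelihood test with Benjamini-Hochberg adjustment over 14113 genes. In a bulk culture, fewer cells of a type and less RNA per cell cannot be told apart.

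Kdr encodes VEGFR2, the receptor through which VEGF-A drives endothelial growth. Levels of Kdr were 4.88, 26.7, 8.87 and 1.55 CPM in WT vehicle and 6.71, 5.29, 10.1, 12.7 and 3.87 CPM in WT LPS. They were 8.82, 7.27, 3.10, 4.77 and 4.796 CPM in APP vehicle and 16.99, 5.95, 7.10, 5.15 and 0 CPM in APP LPS. The highest library was WT vehicle replicate 2 and the lowest APP LPS replicate 5, and all 4 groups overlapped. The means were 10.5 ± 11.2, 7.73 ± 3.62, 5.75 ± 2.27 and 7.04 ± 6.19 CPM. In the 4 libraries numbered 57 to 60 Kdr stood at 2.55 ± 2.18 CPM, and in the other 15 at 8.96 ± 6.05 CPM. The log2 change with LPS was −0.44 ± 0.98 in WT and 0.29 ± 0.93 in APP, within 1 SE of 0 in both.

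Tek encodes TIE2, the angiopoietin receptor that keeps vessels quiescent. It was counted in 7 of 19 libraries. The WT vehicle libraries held 0, 2.08, 0 and 1.72 CPM of Tek, the APP vehicle libraries 0, 3.71, 0, 5.94 and 2.07 CPM. After LPS the only values above 0 were 1.05 CPM in WT LPS replicate 1 and 0.0938 CPM, which is 2 counts, in APP LPS replicate 2. In both genotypes the LPS libraries overlapped the vehicle libraries at 0. A library at 0 allows up to 3 counts, which is 0.0963 to 0.249 CPM over the 19 libraries. Summed over libraries, Tek had 77 counts with vehicle and 22 with LPS in WT, and 241 and 2 counts in APP. The ratio of APP vehicle to APP LPS, each relative to its summed library totals, was 103, with a 95% interval of 28.3 to 859 that covers counting error only and not the spread between libraries. The edgeR log2 change in APP was −6.54 ± 2.82, with an unadjusted p of 0.0303 and an adjusted p of 0.959. Averaged over genotypes it was −4.34 ± 1.81, with an adjusted p of 0.723 by edgeR. Tek had at least 10 counts in 2 WT vehicle, 3 APP vehicle, 1 WT LPS and 0 APP LPS libraries. It thus passed the filter on low counts mainly through vehicle libraries, so its unadjusted p is no support for a change with LPS. The biological coefficient of variation that edgeR estimated for Tek was 2.91, against a median of 0.634 over the genes tested.

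Cdh5 encodes VE-cadherin, the adhesion protein of endothelial adherens junctions. Its levels were 17.3, 18.99, 34.7 and 21.8 CPM in WT vehicle and 11.6, 24.2, 18.9, 47.2 and 19.8 CPM in WT LPS. They were 13.6, 7.08, 26.1, 20.4 and 12.95 CPM in APP vehicle and 0, 20.6, 13.2, 14.04 and 9.29 CPM in APP LPS. The highest value was in WT LPS replicate 4 and the lowest in APP LPS replicate 1, and APP libraries lay lower than WT libraries on average with overlap at both treatments. Means were 23.2 ± 7.92, 24.3 ± 13.5, 16.0 ± 7.37 and 11.4 ± 7.58 CPM. The log2 difference of APP from WT averaged over treatments was −0.81 ± 0.53, with an adjusted p of 1 by edgeR. With LPS the log2 change of Cdh5 was 0.07 ± 0.78 in WT and −0.49 ± 0.73 in APP. In GENCODE M21 an antisense gene, Gm29682, overlaps Cdh5. Whether the counting used strand is not given in the sources used here.

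Cldn5 encodes claudin-5, the main tight-junction claudin of the blood-brain barrier. It was at 0 in 15 libraries and failed the filter on low counts, so it has no fit. The 4 libraries with counts were WT LPS replicate 2 with 2.21 CPM, WT LPS replicate 5 with 0.417 CPM, WT LPS replicate 4 with 0.0646 CPM and APP vehicle replicate 4 with 3.61 CPM. These are 54, 11, 1 and 65 counts. No WT vehicle library and no APP LPS library had a count, which allows at most 0.0323 and 0.0313 CPM over the libraries of each group, by counting error only.

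Esam encodes an adhesion molecule of endothelial tight junctions. Its levels were 4.85, 8.27, 22.2 and 15.5 CPM in WT vehicle and 19.6, 0.902, 11.5, 17.3 and 6.18 CPM in WT LPS. They were 10.2, 14.6, 12.6, 15.1 and 11.3 CPM in APP vehicle and 27.9, 9.00, 8.26, 7.89 and 6.53 CPM in APP LPS. The APP vehicle libraries lay closest together, and a single library, APP LPS replicate 1, held the highest value of all. The 4 group means were 12.7 ± 7.74, 11.1 ± 7.75, 12.8 ± 2.08 and 11.9 ± 8.98 CPM, and their differences were smaller than the SD within the WT or APP LPS libraries. The log2 change with LPS was −0.19 ± 0.66 in WT and −0.10 ± 0.63 in APP.

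Egfl7 encodes a protein that endothelial cells secrete into the matrix during vessel formation. Its levels were 9.92, 13.2, 16.0 and 13.99 CPM in WT vehicle and 4.55, 4.92, 10.3, 12.2 and 5.12 CPM in WT LPS. They were 3.77, 11.3, 9.86, 14.99 and 12.0 CPM in APP vehicle and 0, 1.5003, 10.3, 7.89 and 7.63 CPM in APP LPS. In both genotypes the vehicle libraries were on average higher, and the ranges overlapped. The means were 13.3 ± 2.53, 7.42 ± 3.57, 10.4 ± 4.14 and 5.46 ± 4.45 CPM. The log2 change with LPS was −0.84 ± 0.88 in WT and −0.93 ± 0.84 in APP, and −0.88 ± 0.61 averaged over genotypes with an adjusted p of 0.997 by edgeR. Library numbers run in consecutive vehicle and LPS pairs, which the labels do not name as pairs. Within them Egfl7 was lower with LPS in 4 of 4 WT pairs and 4 of 5 APP pairs. Esam was lower in 3 of 4 WT and 4 of 5 APP pairs, and Flt1 in 3 and 3. Cdh5 was lower in 2 and 4, Kdr in 1 and 2, Pecam1 in 3 and 2 and Eng in 1 and 3. Tek and Cldn5 were at 0 in both libraries of some pairs. The share over all genes was not computed, so these counts have no base rate. Egfl7 shares bases with Gm20532 and the microRNA gene Mir126a on its own strand in GENCODE M21, so reads of these genes may be split between them. Agpat2 and the microRNA gene Mir126b overlap Egfl7 on the opposite strand.

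**Figure D1:**
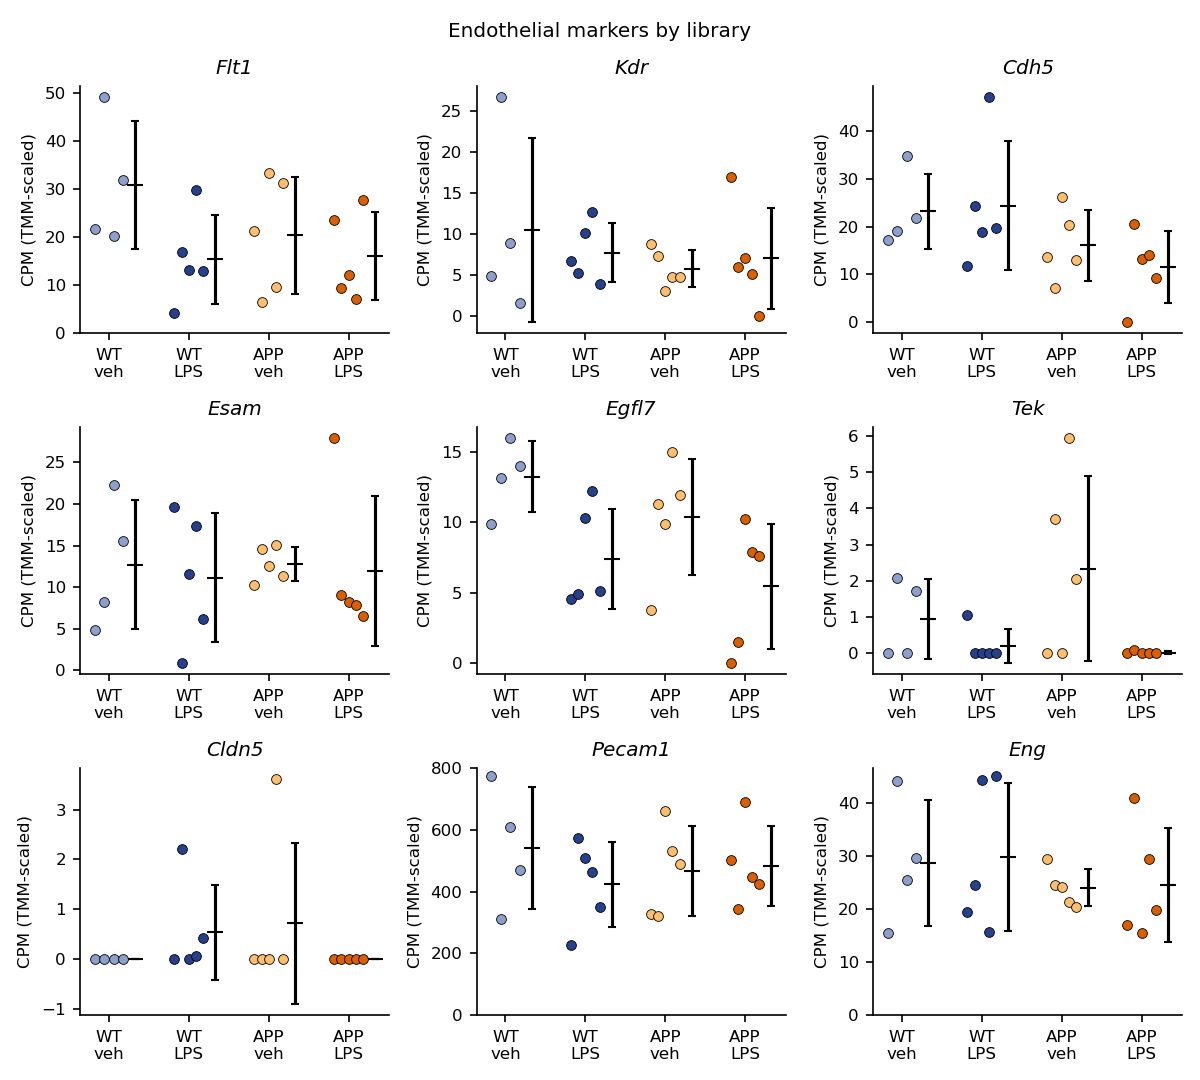
Levels of the 9 markers in each of the 19 libraries, in CPM on a linear scale; each point is 1 library, and the bar beside each group is its mean ± SD (n = 4 for WT vehicle, n = 5 for the others). Pecam1 lay between 226 and 774 CPM, the restricted markers did not exceed 49.1 CPM, and Tek and Cldn5 were at 0 in most libraries.

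Pecam1 encodes CD31, an adhesion molecule of endothelial junctions, platelets and leukocytes including macrophages. It was counted in every library, with 774, 313, 611 and 469 CPM in WT vehicle and 226, 575, 509, 464 and 349 CPM in WT LPS. The APP vehicle libraries held 328, 320, 663, 532 and 491 CPM, and the APP LPS libraries 503, 345, 691, 449 and 426 CPM. All 4 groups overlapped over most of their range. Group means were 542 ± 197, 424 ± 138, 467 ± 145 and 483 ± 129 CPM. The log2 change of Pecam1 with LPS was −0.35 ± 0.29 in WT and 0.05 ± 0.28 in APP, and APP differed from WT by −0.01 ± 0.20 averaged over treatments. Its biological coefficient of variation was 0.33, the lowest of the markers tested.

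Eng encodes endoglin, a co-receptor for BMP9 and TGF-β ligands on endothelium and activated macrophages. The values were 15.5, 44.1, 25.5 and 29.6 CPM in WT vehicle and 19.3, 24.5, 44.4, 15.6 and 44.97 CPM in WT LPS. They were 29.3, 24.5, 24.2, 21.3 and 20.4 CPM in APP vehicle and 17.03, 40.9, 15.4, 29.4 and 19.8 CPM in APP LPS. All 4 groups overlapped, and the APP vehicle libraries were the most alike. Means were 28.7 ± 11.9, 29.7 ± 13.99, 23.9 ± 3.50 and 24.5 ± 10.7 CPM. The log2 change with LPS was 0.05 ± 0.39 in WT and 0.03 ± 0.36 in APP, and the sign of the APP value turned to −0.01 when libraries were scaled by their totals alone. Fpgs lies on the opposite strand and overlaps Eng in GENCODE M21.

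For each of the 9 markers the group means were put in order, and neighbours in that order differed by less than the larger of their 2 SDs. This held also for the WT vehicle mean that headed the order for Flt1, Kdr, Egfl7 and Pecam1. Neighbours are the closest means, so means farther apart are not covered. Vehicle and LPS means differed by more than the larger SD for Flt1 in WT and for Egfl7 in both genotypes, and neither marker was called. For Flt1 in APP and for the other markers they differed by less. The 7 restricted markers summed to 58.6, 118, 102 and 86.4 CPM in WT vehicle and 47.8, 54.4, 63.8, 119 and 48.2 CPM in WT LPS. They summed to 57.5, 50.5, 85.0, 74.4 and 74.2 CPM in APP vehicle and 68.4, 46.6, 50.9, 41.9 and 51.2 CPM in APP LPS. The sum was thus highest in WT LPS replicate 4 and WT vehicle replicate 2 and lowest in APP LPS replicate 4, and all groups overlapped. Group means of the sum were 91.3 ± 25.4, 66.7 ± 30.03, 68.3 ± 13.99 and 51.8 ± 10.0 CPM. Flt1 and Cdh5 made up most of the sum, which is a description and was not tested. In WT LPS replicate 4 the restricted markers with the largest values were Cdh5 and Flt1, and without that library the WT LPS mean was 53.6 CPM.

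**Figure D2:**
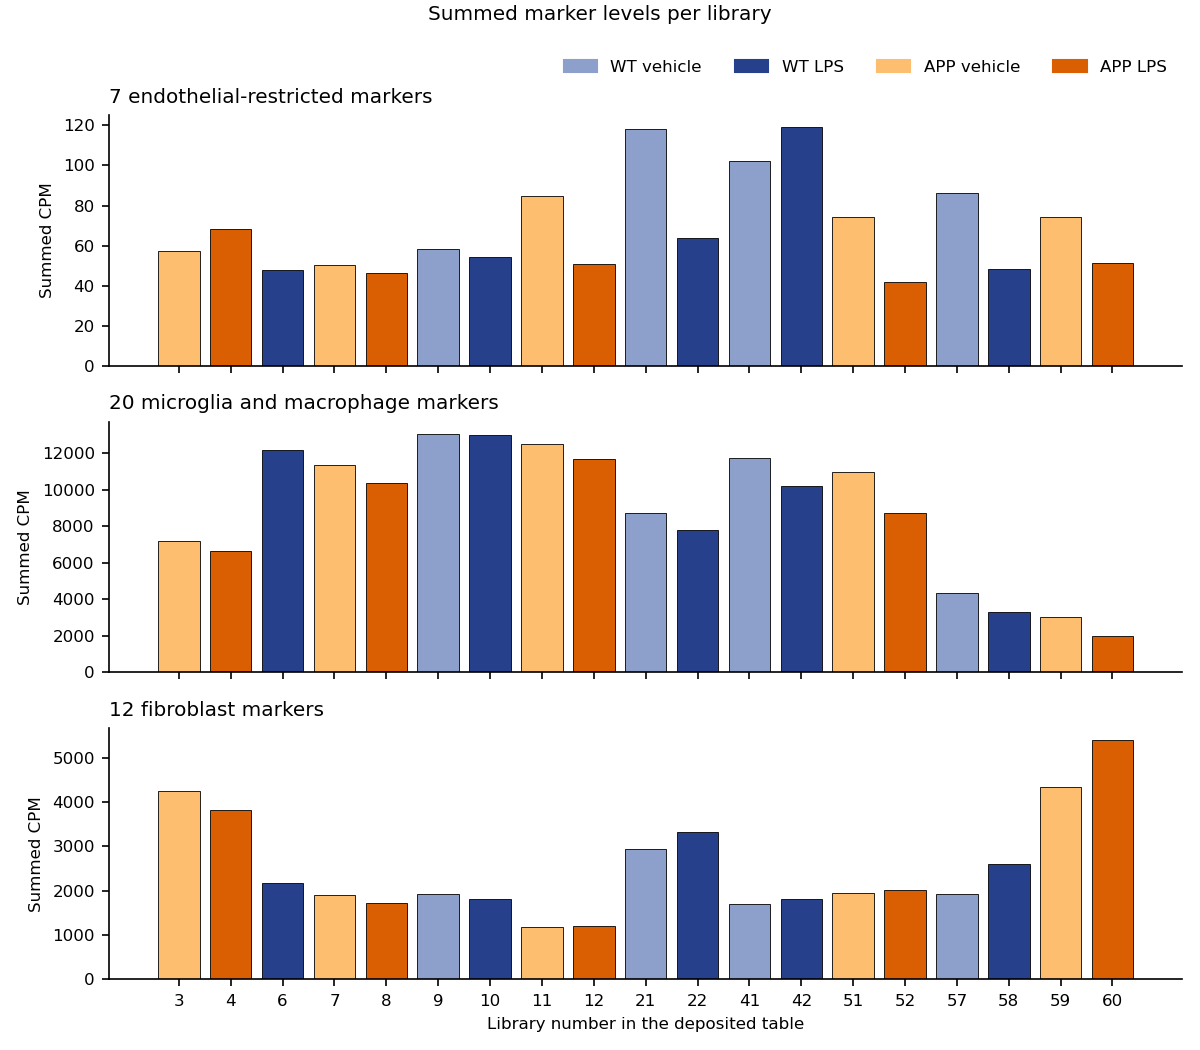
Summed CPM per library of the 7 endothelial-restricted markers (top), of 20 microglia and macrophage markers (middle) and of 12 fibroblast markers (bottom), with the deposited library numbers on the horizontal axis and colours for the 4 groups; all axes are linear and start at 0. The macrophage sum was 1995 to 4318 CPM in libraries 57 to 60, while the restricted endothelial sum was between 48.2 and 86.4 CPM there.

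The sum of the restricted markers differed by less than 1 SD between libraries with low and high macrophage content. It was 65.0 ± 18.4 CPM in libraries 57 to 60 and 69.3 ± 25.6 CPM in the other 15, while the macrophage sum was 3163 ± 956 against 10399 ± 2112 CPM. The sum joins markers that differed in opposite directions. Flt1, which is also known from macrophages, stood at 25.9 ± 8.87 CPM in those 4 libraries and 18.5 ± 12.1 CPM in the others. Kdr stood at 2.55 ± 2.18 and 8.96 ± 6.05 CPM. Fibroblast markers summed to 3568 ± 1586 CPM in those 4 libraries and 2247 ± 915 CPM in the others, and pericyte and smooth muscle markers to 787 ± 208 against 397 ± 221 CPM. Pecam1, which macrophages also make, stood at 434 ± 62.6 CPM in libraries 57 to 60 and 487 ± 159 CPM in the others, a smaller contrast than that of the macrophage sum. Eng stood at 28.7 ± 11.7 and 26.1 ± 10.0 CPM. These are levels of 4 and 15 libraries that were set apart by their measured macrophage content, so no test was made.

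The LPS comparisons asked whether any marker differed between treated and untreated cultures of a genotype. By edgeR's quasi-likelihood test 0 of the 8 markers tested were called in WT, where 0.0% of 14113 genes were called, and 0 of 8 in APP, also against 0.0%. At an unadjusted p under 0.05 there were 0 markers in WT, against 3.66% of the genes tested, and 1 in APP, Tek, against 4.81%. Averaged over genotypes 0 of 8 markers were called, against 0.0213% of genes, which were Il1b, Tnf and Apoe, and 1 marker, Tek, had an unadjusted p under 0.05, against 6.14%. Tek passed the filter on low counts mainly through vehicle libraries, where it is higher, so its unadjusted p-values are no support for a change. DESeq2 on the same counts called 0 of 8 markers in WT, against 0.633% of the 14050 genes to which it gave an adjusted p, 0 in APP, against 0.541%, and 0 averaged over genotypes, against 1.27%. In APP the replicate numbers were taken as pairs from the data, since the labels name none. They give the same APP pairs as consecutive library numbers, which were the block in a single fit of both genotypes. That fit called 83 genes or 0.588% with LPS in APP, and 0 markers. In WT it called 0 markers, against 0.149% of genes, and averaged over genotypes 0, against 1.5%. The group ranges did not overlap for 0 of 9 markers in WT, where this held for 1.11% of genes, and for 0 of 9 in APP, where it held for 0.49%.

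The size of the changes was uneven across the restricted markers. Of the 6 with a fit, 1 had a log2 change above 0 with LPS in WT (Cdh5) and 1 in APP (Kdr), and the medians were −0.64 and −0.42. Tek is among the 6, at −2.14 in WT and −6.54 in APP. It passed the filter on low counts mainly through vehicle libraries, so the tally and medians are no support for a change. The medians over all genes tested were −0.01 and −0.03. Kdr turned sign in both genotypes with library-number pairs as a block, to 0.15 in WT and −0.26 in APP. As a check of the treatment, all 10 genes of an LPS response list had a log2 change above 0 in both genotypes, with medians of 1.53 in WT and 1.499 in APP, and 8 and 9 of them had an unadjusted p under 0.05. That list was chosen with the response of these libraries known.

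**Figure D3:**
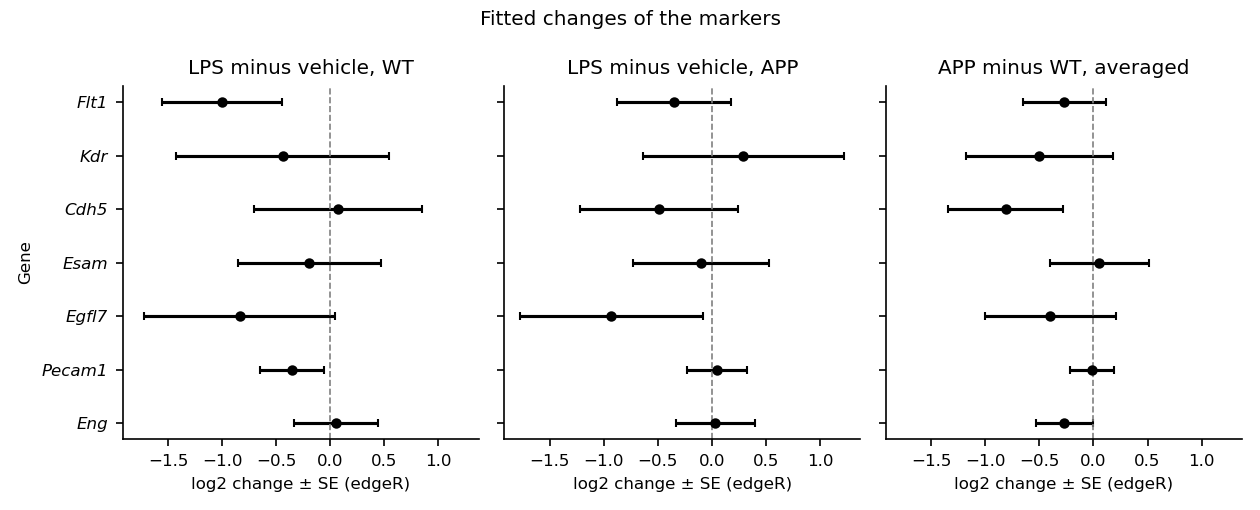
Log2 change ± SE of 7 markers, from edgeR, for LPS against vehicle in WT (left) and APP (middle) and for APP against WT averaged over treatments (right); the dashed line marks no change. Tek, with log2 changes from −6.54 to −0.90, was left out of the plot, and Cldn5 has no fit. No marker shown passed an adjusted p of 0.05.

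The comparison of APP with WT asked whether the transgenic cultures held other levels of the markers. With vehicle 0 of 8 markers were called by edgeR, against 0.0% of genes, and with LPS 0 of 8, against 0.0%. Averaged over treatments 0 of 8 were called, again against 0.0% of genes. At an unadjusted p under 0.05 no marker was found in any of the 3, against 2.85%, 3.42% and 3.44% of genes. DESeq2 called 0 markers in each, against 0.456%, 0.491% and 0.762% of genes. Of the 6 restricted markers with a fit, 1 (Esam) had a log2 difference above 0 averaged over treatments, and the median was −0.45, against 0.00 over all genes tested. The group ranges overlapped for all 9 markers, while 0.708% of genes with vehicle and 0.419% with LPS had ranges that did not. For the interaction of genotype and LPS 0 of 8 markers were called by edgeR or by DESeq2, against 0.0% of genes by edgeR and 0.705% by DESeq2, and 0 had an unadjusted p under 0.05, against 2.73%. The largest difference in the LPS change between genotypes among markers counted in nearly every library was 0.73 ± 1.36 for Kdr.

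Whether the 9 markers rose and fell together was examined in pairs over the 19 libraries, on log2(CPM + 0.5). Of 36 pairs, 0 passed a permutation test with 100000 resamples and Benjamini-Hochberg adjustment, by Pearson's r or by Spearman's rho. The median r was 0.01 and the range −0.41 (Pecam1 with Eng) to 0.74 (Cdh5 with Egfl7). Among the 21 pairs of restricted markers 10 had an r above 0. Cdh5 with Egfl7 was the 1 pair with an unadjusted permutation p under 0.05. Its r of 0.74 had a p of 0.014 and an adjusted p of 0.487 over the 36 pairs, and its rho was 0.39. Without the 2 libraries farthest from the median of Cdh5 the r was 0.27, so the relation rests on those libraries, of which APP LPS replicate 1 had 0 CPM of both genes. Flt1 and Kdr, the 2 VEGF receptors, had an r of −0.03 over the 19 libraries and of 0.43 without libraries 57 to 60, where the unadjusted permutation p was 0.107. Tek and Cldn5 were at 0 in most libraries, so their values in these pairs are set by few libraries. Leaving out libraries 57 to 60, or centring each value on its group mean, also gave 0 pairs that passed.

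**Figure D4:**
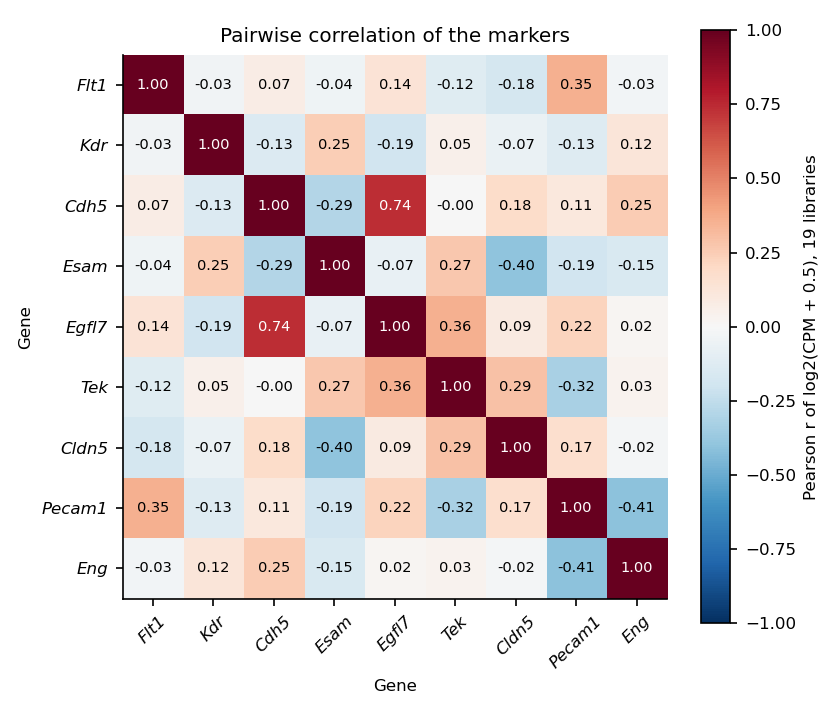
Pearson's r of log2(CPM + 0.5) for each pair of the 9 markers over 19 libraries, with the value printed in each square and colour from −1 (blue) to 1 (red). Outside the diagonal the value farthest from 0 is that of Cdh5 with Egfl7, at 0.74, and none passed the adjusted permutation test.

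For the 7 markers with enough counts, the genes with the most similar pattern over the 19 libraries were looked up among 12844 genes by Pearson's r of log2(CPM + 0.5). All values share libraries, depth and scaling, and the 3 genes with the highest r out of so many are given as a description. For Flt1 they were Gmnn (r = 0.86), Fbxo5 (0.86) and Sgo1 (0.77), and for Kdr Pea15a (0.82), Mfap3l (0.82) and Chmp1a (0.81). For Cdh5 they were Klhl28 (0.93), Papolg (0.92) and Ints9 (0.92), and for Esam Lrrc8b (0.74), Trio (0.71) and Dcaf12 (0.70). For Egfl7 they were Dynlt1c (0.88), Rpl22 (0.88) and Ugt1a7c (0.86), and for Eng Klf2 (0.77), Abcb9 (0.76) and Mettl13 (0.75). None of these 18 genes is another of the 9 markers.

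The pattern of Pecam1 was shared most closely by Or8b44 (r = 0.97), an olfactory receptor gene, by Vmn1r13 (0.96), a vomeronasal receptor gene, and by Paip1 (0.96), which encodes a partner of poly(A)-binding protein. Receptors of the olfactory and vomeronasal families are known from sensory neurons of the nose. Or8b44 was counted at 2075 to 7379 CPM, with a median of 4789. Vmn1r13 lay between 97.4 and 448 CPM, and Paip1 between 156 and 508 CPM. In WT LPS replicate 1, the lowest library for Pecam1 at 226 CPM, Or8b44 was at 2075 CPM, also its lowest. In WT vehicle replicate 1, the highest for Pecam1 at 774 CPM, it was at 7263 CPM. Over the 15 libraries outside 57 to 60, which form a set of their own in the macrophage sum, Pecam1 had an r of 0.98 and a rho of 0.95 with Or8b44. With the macrophage sum it had an r of 0.29 and a rho of 0.475 over the same 15 libraries, with two-sided permutation p-values of 0.295 and 0.0758 in 100000 resamples. Over all 19 libraries the r was 0.19 and the rho 0.39, with permutation p-values of 0.446 and 0.0965. These p-values are unadjusted, and the 15 libraries were set apart by the macrophage sum itself. Without the 2 libraries farthest from the median of the macrophage sum the r over the 15 libraries was 0.30.

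**Figure D5:**
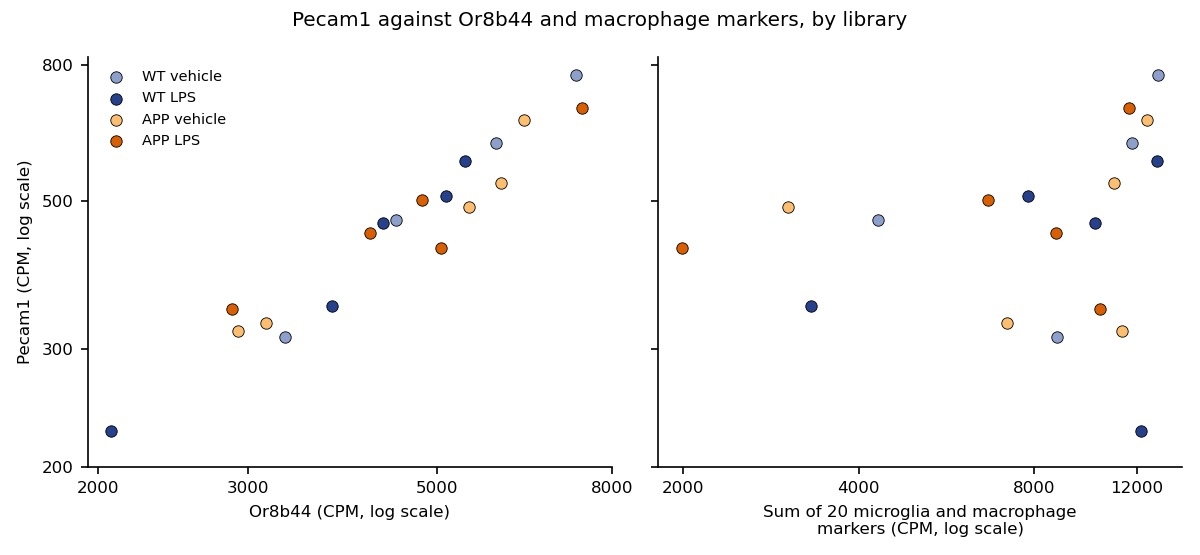
Pecam1 against Or8b44 (left) and against the sum of 20 microglia and macrophage markers (right), in CPM on log axes; each point is 1 of 19 libraries, coloured by group. Over the 15 libraries outside 57 to 60 the r on the log2 scale is 0.98 on the left and 0.29 on the right, and over all 19 it is 0.97 and 0.19.

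Since kallisto assigns reads by short exact matches, the transcripts of each marker in GENCODE M21 were searched for stretches of 31 bases that also stand in transcripts of other genes. Only the sense strand of each transcript was searched. Sequence shared with overlapping genes on the opposite strand, as at Cdh5, Egfl7 and Eng, was therefore not counted. Within this search Cdh5, Esam, Tek, Cldn5 and Eng had 0 such stretches. Pecam1 had 132 of 6246, or 2.11%, shared with 1173 other genes, and all of them lay in 1 of its 8 transcripts, a retained-intron form, and in 0 of its 6 coding transcripts. The stretch of Pecam1 found in the most genes, 356 others, is shown as an example. Its 31 bases alone do not name 1 gene, while a longer read may hold other bases that do.
Pecam1 shared stretch: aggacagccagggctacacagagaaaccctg
Flt1 shared 48 stretches with 3158 other genes and Kdr 13 with 1435. Egfl7 shared 251, all with its neighbours Gm20532 and Mir126a. These stretches reached 1 of the 2 coding transcripts of Flt1, 0 of 1 of Kdr and 8 of 12 of Egfl7. Pecam1 and Paip1 had 0 stretches in common, and Pecam1 and Vmn1r13 had 2, which consist of the base a alone. Or8b44 was not matched by that name in this annotation. The annotation the authors used is not given in the sources used here. The part of shared sequence in the counts of Pecam1, Flt1, Kdr and Egfl7 was not tested. Because of the shared sequence the values of these genes are given as counts assigned to them.

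Most other endothelial genes were missing from at least 1 library. Of 31 further identity genes 29 were measured and 4 were counted in all 19 libraries, against 51.0% of all genes. Of the 29, 6 were at 0 in 10 or more libraries, a share near the 24.99% of all genes. Cd93, a C-type lectin-like receptor of endothelium and myeloid cells, ran from 31.3 to 140 CPM. Nr2f2, a transcription factor of veins and of stromal cells, ran from 25.2 to 180 CPM, and Esm1, a proteoglycan of sprouting endothelium, from 5.54 to 81.9 CPM. Emcn, an endothelial sialomucin, ran from 0 to 38.9 CPM. Vwf, the von Willebrand factor stored in endothelial granules, was at 0 in 12 libraries and did not exceed 2.39 CPM, and Tie1, a partner of TIE2, was at 0 in 7. With LPS 10 of 25 identity genes tested had a log2 change above 0 in WT (median −0.06) and 6 of 25 in APP (median −0.30), and 0 were called in either by edgeR.

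Barrier genes ranged from abundant to undetected. Of 25 genes of blood-brain barrier endothelium 24 were measured, 8 were counted in every library and 10 were at 0 in 10 or more. Slc2a1, the glucose transporter GLUT1, ran from 30.4 to 124 CPM, Slc7a1, a carrier of cationic amino acids, from 25.7 to 222 CPM, and Ctla2a from 144 to 813 CPM. All 3 are also made by cells outside the endothelium. Mfsd2a, the lipid carrier of brain endothelium, was at 0 in 12 libraries, Ocln, which encodes occludin, in 14, and Slco1c1, a thyroid hormone carrier, in 16. With LPS 8 of 18 barrier genes tested had a log2 change above 0 in each genotype, and 0 were called. Of 19 adherens and tight junction partners 18 were measured and 0 of 16 tested were called, with Ctnna1 (α-catenin) at 194 ± 51.6 CPM in WT vehicle and 174 ± 21.9 CPM in WT LPS.

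In the VEGF pathway the ligand Vegfa stood at 117 ± 39.6, 110 ± 43.0, 110 ± 79.1 and 120 ± 58.0 CPM. Its co-receptor Nrp1 stood at 131 ± 64.6, 64.1 ± 22.3, 129 ± 35.1 and 59.5 ± 24.0 CPM, lower with LPS in both genotypes. The log2 change of Nrp1 averaged over genotypes was −1.07 ± 0.24, with an adjusted p of 0.149 by edgeR, so it was not called. Nrp2, a second neuropilin, stood at 256 ± 72.9, 265 ± 77.2, 272 ± 70.2 and 223 ± 56.4 CPM. Of the 10 pathway genes tested beside Flt1 and Kdr, 3 had a log2 change above 0 with LPS in WT and 6 in APP, and 0 were called. In the angiopoietin pathway of Tek the ligand Angpt2 stood at 87.1 ± 38.4, 63.6 ± 30.3, 47.6 ± 27.5 and 34.9 ± 25.7 CPM, and 0 of 6 genes tested were called. The genes of the angiopoietin list summed to 65.5 ± 21.2 CPM in libraries 57 to 60 and 124 ± 38.3 CPM in the other 15. In the endoglin, BMP9 and ALK1 pathway 0 of 15 genes tested were called, and its target Id2 stood at 550 ± 132 and 573 ± 168 CPM in WT vehicle and WT LPS. That list summed to 1228 ± 80.3 CPM in libraries 57 to 60 and 1560.2 ± 188 CPM in the others. In Notch signalling of vessels 0 of 10 were called. There 4 of 10 genes had a log2 change above 0 with LPS in WT (median −0.24) and 1 of 10 in APP (median −1.26). Hes1, a Notch target, had a log2 change of −1.02 ± 0.41 in APP with an adjusted p of 0.956 by edgeR.

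Adhesion molecules of inflamed endothelium had medians above 0 with LPS. Which cells of the cultures carried these RNAs was not tested. All 5 tested had a log2 change above 0 with LPS in WT (median 0.92) and 4 of 5 in APP (median 0.55), and 0 were called. Icam1, the ligand of leukocyte integrins, stood at 42.2 ± 20.5 CPM in WT vehicle and 79.9 ± 50.4 CPM in WT LPS, and at 41.5 ± 13.9 and 60.7 ± 19.7 CPM in APP. Its log2 change averaged over genotypes was 0.74 ± 0.28, with an adjusted p of 0.695 by edgeR. Vcam1, which fibroblasts also make, stood at 202 ± 162, 271 ± 239, 300 ± 183 and 433 ± 214 CPM. Sele and Selp, which encode the E-selectin and P-selectin of activated endothelium, were at 0 in 7 libraries each and did not exceed 15.8 and 19.4 CPM. The adhesion molecules summed to 686 ± 139 CPM in libraries 57 to 60, 1 of each group, and to 299.9 ± 176 CPM in the other 15, and the part of these libraries in the levels was not tested.

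Markers of other cell types were present in the same cultures. Fibroblast markers summed to between 1167 and 5397 CPM per library, led by Dcn, and pericyte and smooth muscle markers to between 139 and 1040 CPM, led by Tagln. Of the 11 pericyte and smooth muscle genes tested, 2 had a log2 change above 0 with LPS in WT and 1 in APP (medians −0.67 and −0.53). Of the 11 fibroblast genes 3 and 1 did (medians −0.35 and −0.40), and of the 20 macrophage genes 4 and 7 (medians −0.14 and −0.31). Platelet and megakaryocyte markers, which could carry Pecam1, summed to between 0.616 and 38.0 CPM. Astrocyte markers summed to between 62.7 and 364 CPM, neuronal markers to between 61.3 and 292 CPM and oligodendrocyte markers to between 36.6 and 241 CPM. Lymphatic endothelial markers summed to between 66.2 and 441 CPM, of which Pdpn, also a fibroblast gene, held 56.2 to 435 CPM, while Prox1 and Lyve1 were at 0 in 6 and 5 libraries. No gene of these lists was called with LPS or between genotypes by edgeR, and their part in the marker levels was not tested.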

How the data were processed

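RNA with an integrity number above 8.5 entered QuantSeq 3′ libraries with molecular identifiers and spike-ins, per the labels' protocols. Whether reads were collapsed by identifier, the genome build and the annotation are not given in the sources read. FastQC, Trimmomatic, kallisto and DESeq2 are named per the submitters' processing notes. The authors deposited kallisto's estimated counts by gene symbol, which were whole numbers. The smallest summed count of a gene was 10, and 0 spike-in entries were found.

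Groups came from the titles. CPM values were computed here with TMM scaling. Genes were tested with edgeR 4.0.16 (limma 3.58.1, R 4.3.3) by quasi-likelihood F tests in 1 fit over 19 libraries with 1 coefficient per group. filterByExpr kept 14113 genes and left out 2828. Called genes had a Benjamini-Hochberg adjusted p, over all tested, under 0.05. Correlations used SciPy 1.17.1. Alternatives were DESeq2 1.42.0, other size factors, no filter, replicate blocks, and libraries left out.

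No library was a copy of another: over 36 pairings within groups, chi-square per degree of freedom was at least 87.4. Same-numbered APP libraries deviated together (r from 0.13 to 0.35 over 5 pairs), so the numbers were taken as pairs there, from the data. APP libraries of different numbers were not compared in this way. WT title numbers did not (−0.09 to 0.07), and WT pairs by consecutive library number gave 0.10 to 0.29. WT LPS replicate 1 is labelled library 5, and its file is numbered 6.

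The members and gene lists were chosen with earlier results of these data known. Named in the text were all 9 markers, up to 3 genes of each list with the highest mean CPM, and the 3 genes most like each marker with at least 10 counts in 15 libraries; Vwf, Tie1, Emcn, Mfsd2a, Ocln, Slco1c1, Sele, Selp, Prox1, Lyve1, P2ry12 and Tmem119 were added after their values were seen. Scripts were tested on simulated data.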

Additional observations from a re-analysis of the deposited data

Results flagged for a closer look

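In 40 groups of 4 or 5 libraries, 6 values lay far from the others of their group by Dixon's criterion. Chance meets it in about 1 of 20 groups of normally distributed values. That rate does not hold for the groups of Tek and Cldn5, which are mostly at 0 and supply most of the 6 values, so no excess is read from the count. APP LPS replicate 1 held 27.9 CPM of Esam, while the other 4 libraries of its group held 6.53 to 9.00 CPM. In the same library Cdh5 and Egfl7 were both at 0 CPM and Kdr was at 16.99 CPM, so the markers of 1 library stood at opposite ends of their groups.

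Tek was at 1.05 CPM in WT LPS replicate 1 and at 0.0938 CPM in APP LPS replicate 2, and at 0 in the other libraries of both groups. Cldn5 was at 2.21 CPM in WT LPS replicate 2, with 0 to 0.417 CPM in the others of its group, and at 3.61 CPM in APP vehicle replicate 4, with 0 in the others. In groups with most values at 0, a single library with counts meets the criterion.

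The 7 restricted markers summed to 119 CPM in WT LPS replicate 4 and to 47.8 to 63.8 CPM in the other 4 libraries of that group.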

How the results depend on the processing

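In all settings run, 0 markers were called and 0 of 36 pairs of markers passed. With no fitted change past the threshold, a sign that turned is no result by itself, and the cause of each was not tested. The spread between libraries limits these data: edgeR's biological coefficient of variation was 0.33 for Pecam1 and 0.42 for Eng, but 0.58 to 0.95 for Flt1, Esam, Cdh5, Egfl7 and Kdr. Across the settings other than leaving out 1 library, 344 marker changes kept their sign and 24 turned, and with 1 library left out 980 kept it and 84 turned.

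DESeq2 called 89 genes with LPS in WT, 76 in APP and 178 averaged, 64 between genotypes with vehicle, 69 with LPS and 107 averaged, and 99 for the interaction. With library-number pairs as a replicate block, 21 genes were called with LPS in WT, 83 in APP and 211 averaged, and with title numbers as the replicate block 15 averaged. WT title numbers did not pair the libraries. The blocks changed no call of a marker. Without libraries 57 to 60, 4 genes were called with LPS in APP, 31 averaged and 1 between genotypes with LPS. Leaving out 1 library gave 0 to 2 genes with LPS in APP, 0 to 11 averaged and 0 to 1 between genotypes with LPS, each highest without APP LPS replicate 5.

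With title numbers as a replicate block, the log2 change with LPS was 0.13 for Kdr and −0.0025 for Cdh5 in WT, −0.12 for Kdr and −0.041 for Eng in APP, and 0.0080 for Kdr averaged. Flt1 differed by −0.015 between genotypes with LPS, and the interaction of Kdr was −0.25. With library-number pairs as a block, Kdr was 0.15 in WT and −0.26 in APP, Eng −0.056 in APP, and the interactions −0.41 for Kdr and 0.23 for Tek. Without libraries 57 to 60, LPS gave 0.062 for Esam and −0.13 for Eng in WT, 0.013 for Esam in APP, and 0.037 for Esam and −0.045 for Eng averaged. There Flt1 differed by −0.29 and Kdr by 0.021 between genotypes with LPS, and the interactions were −0.0495 for Esam and 0.18 for Eng. Library totals alone gave −0.012 for Eng with LPS in APP. The interaction of Eng was 0.000625 with relative log expression size factors and 2.57e-05 with DESeq2.

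With 1 library left out, the log2 change with LPS in WT ran from −0.80 to 0.60 for Kdr, −0.32 to 0.33 for Cdh5, −0.50 to 0.21 for Esam and −0.14 to 0.34 for Eng. In APP it ran from −0.34 to 0.61 for Kdr, −0.69 to 0.056 for Esam, −0.12 to 0.21 for Pecam1 and −0.23 to 0.16 for Eng. Averaged, it ran from −0.39 to 0.44 for Kdr, −0.44 to 0.051 for Esam and −0.090 to 0.18 for Eng. Between genotypes with vehicle, Esam ran from −0.26 to 0.43, Pecam1 from −0.40 to 0.010, Kdr from −1.22 to 0.18 and Eng from −0.47 to 0.030. With LPS, Flt1 ran from −0.24 to 0.43, Tek from −5.24 to 2.14, Esam from −0.49 to 0.41 and Kdr from −0.76 to 0.19. Averaged over treatments, Esam ran from −0.24 to 0.26, Pecam1 from −0.11 to 0.094, Kdr from −0.82 to 0.019 and Tek from −1.97 to 1.72. The interaction ran from −0.45 to 0.23 for Egfl7, −0.31 to 0.18 for Eng, −0.32 to 1.08 for Kdr, −0.49 to 0.40 for Esam and −6.54 to 0.84 for Tek. The LPS changes of Flt1, Egfl7 and Tek were below 0 in each of these fits, and Tek passed the filter on low counts mainly through vehicle libraries.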
